A study of Homo sapiens with 8 samples.

Results

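The outer membrane of mitochondria carries channels, fusion and transport GTPases and proteins that hold RNA. Described here are 10 of the 60664 genes listed in both count tables, taken by symbol. They are the channels VDAC1, VDAC2 and VDAC3, the mitofusins MFN1 and MFN2, the Miro GTPases RHOT1 and RHOT2, the DRP1 receptor MIEF1, and the anchors AKAP1 and SYNJ2BP. All 10 passed the filter on low counts in both compartments.

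The cells were HEK293T, an immortal line derived from embryonic kidney. In them the peroxidase APEX2 biotinylated RNA near it, and the biotinylated RNA was captured on streptavidin and sequenced. In 1 set of libraries APEX2 was nuclear (NLS) and the kit was SMARTer stranded total RNA, with the word ribominus in the titles. Captured RNA of that set was released with proteinase K by the series' design text. In the other set it sat at the outer mitochondrial membrane (OMM) and the kit was TruSeq stranded mRNA, with the word trizol in the titles and TRIzol as the extraction agent in the design text, though the labels' extraction protocol names a spin column for all samples. Each set had 2 labelled libraries and 2 controls without labelling, 8 in all, so the compartment, the kit and the release step cannot be told apart. All groups express APEX2, and the sources used here do not give its targeting sequence, its promoter or whether the cells are 1 clone. Whether replicates were separate cultures is not in the labels, so each p-value is set by library-to-library spread alone, possibly technical. Libraries are called by the numbers in the column names, which need not be those of the sample titles: 1 and 3 in both NLS groups, 3 and 4 in the OMM controls, 2 and 3 in the labelled OMM group.

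VDAC proteins are beta-barrel pores through which ATP, ADP and other metabolites cross the outer membrane. Mitofusins tether and fuse outer membranes, Miro proteins link mitochondria to kinesin and dynein through TRAK adaptors, and MIEF1 recruits the fission GTPase DRP1. AKAP1 holds protein kinase A at the membrane and binds mRNA through KH and Tudor domains, and SYNJ2BP is a tail-anchored PDZ protein that binds the phosphatase SYNJ2. All are made from nuclear genes on cytosolic ribosomes, and mRNAs of some mitochondrial proteins are known to sit at the membrane, held there by RNA-binding proteins or by the protein being made.

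The membrane segment lies at different ends of these proteins, and an mRNA exposes that segment early or late in translation accordingly. It is near the amino terminus in AKAP1 and MIEF1 and at the carboxyl terminus in SYNJ2BP, RHOT1 and RHOT2. The 90 coding bases at those ends are shown, from GENCODE 29 transcripts (GRCh38), 5′ to 3′, with the start or stop codon in capitals.
AKAP1 coding start: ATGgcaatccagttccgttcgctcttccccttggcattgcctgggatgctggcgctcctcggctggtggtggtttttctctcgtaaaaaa
MIEF1 coding start: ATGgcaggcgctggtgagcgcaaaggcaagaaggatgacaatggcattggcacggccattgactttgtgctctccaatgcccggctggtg
SYNJ2BP coding end: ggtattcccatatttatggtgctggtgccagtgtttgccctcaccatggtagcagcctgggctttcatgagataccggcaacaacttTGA
RHOT1 coding end: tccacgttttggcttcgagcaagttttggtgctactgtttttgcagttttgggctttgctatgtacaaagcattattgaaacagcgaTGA
RHOT2 coding end: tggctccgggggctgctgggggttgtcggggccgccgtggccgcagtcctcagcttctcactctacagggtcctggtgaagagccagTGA
Codons with T in the middle position encode hydrophobic residues. They made up 43.3% of the AKAP1 window against 24.9% of its whole coding sequence, and 51.7% against 31.7% for SYNJ2BP. The shares were 37.9% against 29.7% for RHOT1, 44.8% against 28.6% for RHOT2, and 26.7% against 28.7% for MIEF1. The membrane segment of MIEF1 starts further in than that of AKAP1, so its window holds little of it.

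The libraries held 20746393 and 21096586 counts in the NLS controls and 9531568 and 8039176 in the labelled NLS libraries. At OMM they held 34705126 to 52421161. Depth at NLS thus went with labelling, and its part in the results was not tested. The 10 genes took 0.117% and 0.119% of counts in the NLS controls and 0.0909% and 0.0926% in the labelled NLS libraries. At OMM the share was 0.135% and 0.159% without labelling against 0.175% and 0.161% with it. It was thus lower with labelling at NLS and higher at OMM, there by only 0.161% against 0.159% in the closest libraries. Replicates differed far more at OMM, with a biological coefficient of variation of 0.958 against 0.166 at NLS. In the OMM libraries 179 to 354 genes had no count though their group mean was at least 100, against 0 genes in each NLS library. Levels are given as CPM, the count scaled to library size with TMM factors. The lowest count of any of the 10 genes in a library was 217, far above a floor of 3 counts. All 10 HEK293T marker genes had at least 3 counts in every NLS library and 8 of 10 in every OMM library. Their summed level was 1106 to 1120 CPM in the NLS controls, 475 to 547 CPM in the labelled NLS libraries, 799 to 835 CPM in the OMM controls and 920.1 to 1005 CPM in the labelled OMM libraries. The 7 markers of other cell types summed to 7.71 to 11.7 CPM in the NLS controls and 5.92 to 7.86 CPM with labelling. At OMM they summed to 13.7 to 26.5 CPM without labelling and 1.57 to 6.51 CPM with it, and PTPRC, CD3E, HBB, ALB and PECAM1 had no count in any OMM library. The part of these marker shifts in the results was not tested. Values are bulk shares of captured RNA, so fewer cells of a type and less RNA per cell cannot be told apart.

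Per length of merged exons, VDAC1 was the most abundant of the 10 genes and RHOT1 the least in the controls of both compartments. Merged exons exceed the main transcript unequally, at 3141 against 949 bases for VDAC3, 3163 against 1953 for VDAC1 and 5399 against 4285 for AKAP1. The order below therefore holds for merged exons only, and per base of main transcript it would change. In the NLS controls VDAC1 stood at 75.2 ± 5.64 CPM per kb (SD, n = 2), VDAC3 at 56.0 ± 7.98, VDAC2 at 39.4 ± 1.35, AKAP1 at 36.3 ± 1.84, MFN2 at 36.2 ± 0.508 and MIEF1 at 31.8 ± 1.27. MFN1 stood at 14.1 ± 0.318, SYNJ2BP at 14.1 ± 0.953, RHOT2 at 11.2 ± 0.425 and RHOT1 at 4.88 ± 1.12 CPM per kb. The neighbours AKAP1 and MFN2, and MFN1 and SYNJ2BP, overlapped between libraries. The order differed in the labelled NLS libraries, where AKAP1 was the first at 31.5 ± 0.811 CPM per kb, MFN2 the second at 22.9 ± 0.13 and VDAC1 the third at 20.1 ± 0.88, with VDAC3 beside it at 20.0 ± 3.23. In the OMM controls the order was VDAC1 at 114 ± 21.2 CPM per kb, VDAC3 at 94.4 ± 3.42, VDAC2 at 57.5 ± 7.94, MFN2 at 36.1 ± 4.18, AKAP1 at 26.3 ± 0.166 and MIEF1 at 24.4 ± 2.19. SYNJ2BP at 10.8 ± 1.48 and RHOT2 at 9.82 ± 0.61 overlapped, and MFN1 at 5.78 ± 0.963 and RHOT1 at 4.41 ± 0.758 came last. In the labelled OMM libraries AKAP1 reached 52.4 ± 4.89 CPM per kb, within the range of VDAC2 at 52.9 ± 24.0.

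**Figure D1:**
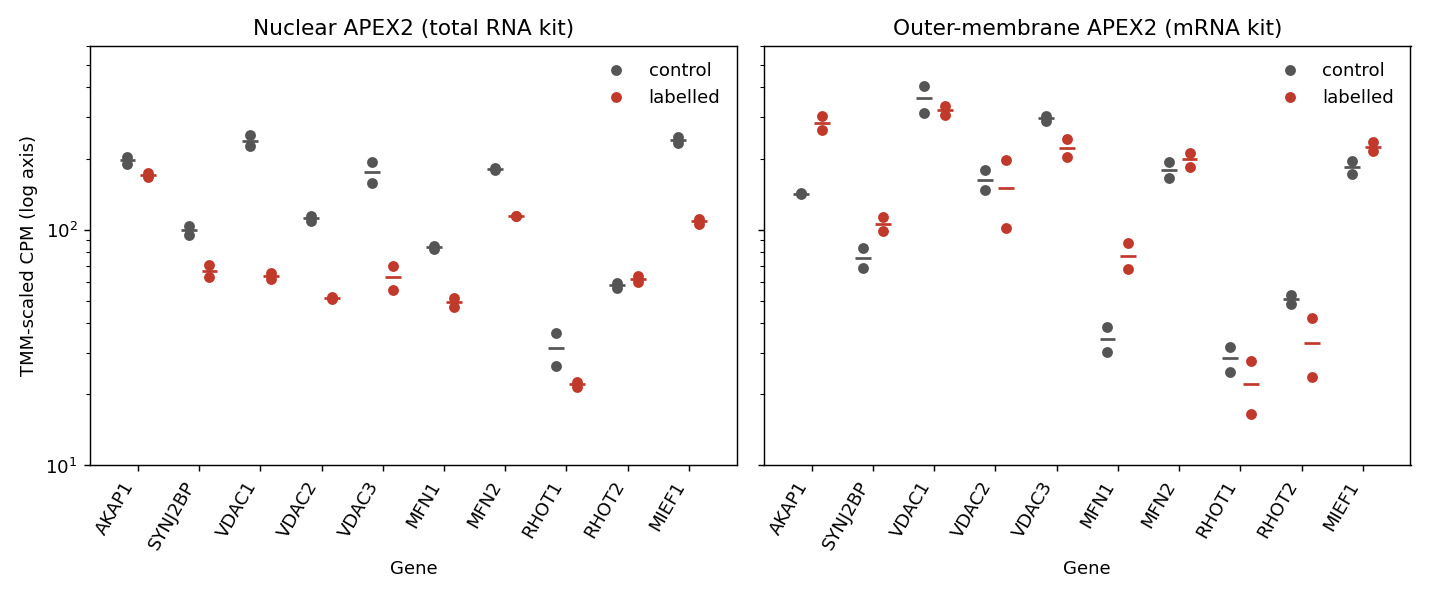
Level of each of the 10 genes in each library, in TMM-scaled CPM on a log axis, with controls in grey, labelled libraries in red and a bar at the mean of the 2 libraries; NLS is on the left and OMM on the right. At NLS the labelled points lie below the controls for 9 genes and above them for RHOT2, whereas at OMM they lie above the controls for AKAP1, SYNJ2BP, MFN1 and MIEF1.

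The first comparison asked which of these mRNAs took a larger or smaller share of captured RNA with nuclear APEX2 active. By edgeR's quasi-likelihood test 7 of the 10 genes fell (adjusted p under 0.05), namely the 3 VDACs, both mitofusins, MIEF1 and SYNJ2BP, and 0 rose. Over all 20858 genes tested 28.5% fell and 28.8% rose. An unadjusted p under 0.05 was seen for 8 of the 10 and for 62.6% of all genes. By DESeq2 and by limma's voom with quality weights 0 of the 10 rose, where 20.9% and 32.6% of all genes did. In the authors' deposited table, p was under 0.05 with a log2 fold change below 0 for 7 of the 10 and for 20.2% of all genes with a p. It was under 0.05 with a log2 fold change above 0 for 0 of the 10 and for 22.1%. For the 10 genes the deposited p-values of both compartments lay close to the adjusted p of DESeq2 run here, as with 0.00274 against 0.00287 for SYNJ2BP. They thus appear to be adjusted p-values. The median log2 fold change of the 10 genes was -0.72, beside 0.14 over all genes. In 9 genes both labelled libraries lay below both controls, as did 37.7% of all genes, and in 1 they lay above, as did 45.1%. With library size alone as scaling the median of all genes moved to 0.66, and 4 of the 10 fell while 2, AKAP1 and RHOT2, rose, where 16.1% of all genes fell and 43.7% rose.

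VDAC1 and VDAC3 had the lowest log2 fold changes of the 10 genes, followed by MIEF1 and VDAC2. VDAC1 stood at 225 and 250.5 CPM in controls 1 and 3 and at 65.6 and 61.7 CPM in labelled libraries 1 and 3. Every labelled value was below every control. The fall was 3.73-fold (log2 fold change -1.90 ± 0.10, SE, adjusted p = 1.82e-05), and 2.98% of all genes had a lower one. VDAC3 went from 158 and 194 CPM to 55.6 and 70.0 CPM (log2 fold change -1.49 ± 0.15, adjusted p = 9.69e-05). VDAC2 went from 109 and 114 CPM to 50.5 and 51.6 CPM (log2 fold change -1.13 ± 0.10, adjusted p = 7.21e-05). The groups did not overlap for any of the 3. Relative to the median of all genes, VDAC1, VDAC3 and VDAC2 lay at -2.04, -1.62 and -1.26 on the log2 scale, and at -2.04, -1.62 and -1.26 with library size alone. A change of scaling shifts all genes nearly alike, so such relative values hardly change by construction, here and below.

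VDAC genes have processed copies elsewhere in the genome with near-identical stretches, so their counts are uncertain. On chromosome 5 (133971915 to 134005133, GRCh38, ENSG00000213585) VDAC1 shares 19.9% of the 50-base windows of its main transcript with transcripts of 8 pseudogenes. For VDAC2, on chromosome 10 from 75210154 to 75231448 (ENSG00000165637), the share was 45.6%, all with 1 pseudogene, VDAC2P5. For VDAC3, on chromosome 8 from 42391624 to 42405897 (ENSG00000078668), it was 5.0%, with VDAC3P1. Outside the VDAC genes, MFN1 shared 6.4% of its windows with transcripts of 489 other genes and RHOT1 4.7% with those of 3. SYNJ2BP shared 9.6% and MIEF1 3.5%, and AKAP1, MFN2 and RHOT2 shared 0%. The part of this sharing in their counts was not tested. The counts of 13 VDAC1 pseudogenes summed to 1.67% and 1.95% of the VDAC1 count in the NLS controls but to 22.6% and 18.5% in the labelled NLS libraries. Most of those labelled counts came from VDAC1P8 and VDAC1P13, which lie on the strand of host genes. VDAC1P1, the copy sharing the most windows, had 9 and 9 counts in the NLS controls against 1 and 0 in the labelled NLS libraries. Whether the pseudogene counts are reads of VDAC1 or of the host genes was not tested. With those counts added, the log2 fold change of VDAC1 was -1.66 (adjusted p = 2.09e-05) in place of -1.90.

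Of the RNA anchors SYNJ2BP passed the test and AKAP1 did not. SYNJ2BP fell from 94.4 and 104 CPM to 63.0 and 70.6 CPM (log2 fold change -0.57 ± 0.11, adjusted p = 0.00358). AKAP1 was at 189 and 203 CPM in the controls and at 173 and 167 CPM in the labelled libraries, a log2 fold change of -0.21 ± 0.09 (95% interval -0.42 to 0.01, adjusted p = 0.0863). Its labelled values were both below the controls, though with library size alone the log2 fold change was 0.31 (adjusted p = 0.0200), a rise, against a median of 0.66 over all genes. Relative to that median AKAP1 was at -0.34, and at -0.35 under TMM. With library size alone SYNJ2BP no longer passed, at -0.05 (adjusted p = 0.719). Relative to the median of all genes it was at -0.71 under both scalings.

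SYNJ2BP (chromosome 14, 70366496 to 70417061, ENSG00000213463) shares 10.1% of its merged exon bases with a read-through gene on the same strand, SYNJ2BP-COX16, whose transcripts join it to the cytochrome oxidase assembly gene COX16. The read-through gene had 1112 and 1024 counts in the NLS controls against 272 and 276 with labelling. It fell by 1.22 on the log2 scale (adjusted p = 0.000222). As a percentage of the SYNJ2BP count it was 67.3 and 56.8 without labelling against 38.1 and 40.6 with it, lower in both. AKAP1 (chromosome 17, 57085092 to 57121349, ENSG00000121057) overlaps an antisense gene over 2.15% of its exon bases, and reads of the overlap cannot be assigned, since the strand setting of the counting is unknown. That antisense gene, ENSG00000263089, had 5 and 1 counts in the NLS controls against 21 and 16 with labelling and rose by 3.29 on the log2 scale (adjusted p = 0.0255). Its counts are few beside the 1606 to 3531 of AKAP1.

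Both mitofusins fell. MFN1 (chromosome 3, 179347692 to 179394931, ENSG00000171109) went from 85.6 and 82.9 CPM to 47.1 and 51.1 CPM (log2 fold change -0.78 ± 0.11, adjusted p = 0.000623). MFN2 (chromosome 1, 11980181 to 12013514, ENSG00000116688), the mitofusin that also tethers mitochondria to the endoplasmic reticulum, went from 182 and 178 CPM to 114 and 114 CPM. Its log2 fold change was -0.66 ± 0.09 (adjusted p = 0.000490). With library size alone neither mitofusin passed, at -0.26 for MFN1 (adjusted p = 0.0813) and -0.14 for MFN2 (adjusted p = 0.216).

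MIEF1 fell, and the Miro genes did not pass the test. MIEF1 (chromosome 22, 39499432 to 39518132, ENSG00000100335) went from 247 and 234 CPM to 111 and 106 CPM (log2 fold change -1.15 ± 0.09, adjusted p = 4.31e-05). RHOT1 (chromosome 17, 32142454 to 32253374, ENSG00000126858), with an antisense gene over 4.03% of its exon bases, was at 36.6 and 26.4 CPM in the controls and 21.6 and 22.5 CPM in the labelled libraries. Its log2 fold change was -0.51 ± 0.19 (adjusted p = 0.0514). It passed with no filter on low counts (adjusted p = 0.0215) and with voom (adjusted p = 0.0348). Without control library 3 it was -0.73 and passed (adjusted p = 6.05e-05), and without control library 1 it was -0.27 (adjusted p = 0.179). Without labelled library 1 or 3 it did not pass. RHOT2 (chromosome 16, 668086 to 674174, ENSG00000140983) was at 59.5 and 56.4 CPM in the controls and 63.3 and 59.8 CPM in the labelled libraries, with a log2 fold change of 0.09 ± 0.11 (95% interval -0.17 to 0.35, adjusted p = 0.530). RHOT2 was the only 1 of the 10 with both labelled libraries above both controls, and relative to the median of all genes it lay at -0.05. With library size alone it rose by 0.61 (adjusted p = 0.00277).

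The second comparison asked which mRNAs were recovered in larger shares when APEX2 at the mitochondrial surface was active. AKAP1 and MFN1 had the highest values of the 10 genes, 2.25-fold for MFN1 and 1.99-fold for AKAP1. By edgeR, though, 0 of the 10 passed in either direction. Over all 14438 genes tested 0.139% rose and 0.0554% fell. AKAP1 and MFN1 were the 2 genes with an unadjusted p under 0.05, as 10.6% of all genes had. DESeq2, run here on the same counts, called 2 of the 10 higher, AKAP1 and MFN1, where it called 6.39% of all genes higher and 5.58% lower. Voom with quality weights called 1, AKAP1, where it called 1.32% of all genes higher and 0.845% lower. In the authors' deposited table, made with DESeq2, both had p under 0.05 with a log2 fold change above 0, where 6.53% of all genes with a p did, and 0 of the 10 had p under 0.05 below 0, where 5.7% did. The median log2 fold change of the 10 genes was 0.01, beside -0.00 over all genes. Both labelled libraries lay above both controls in 4 genes, as in 21.3% of all genes, and below in 2, as in 22.5%.

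AKAP1 stood at 143 and 141 CPM in OMM controls 3 and 4 and at 302 and 264 CPM in labelled libraries 2 and 3. The controls differed by a ratio of 1.01 and both labelled libraries lay far above them, for a log2 fold change of 1.00 ± 0.22 (95% interval 0.49 to 1.5, adjusted p = 0.148). In the authors' deposited table its log2 fold change was 1.00 with p = 2.81e-07, beside 1.00 and an adjusted p = 2.85e-07 by DESeq2 run here. AKAP1 passed edgeR's test with no filter on low counts (adjusted p = 0.0188), with at least 10 counts required in every library (adjusted p = 0.0497) and without labelled library 3 (adjusted p = 0.0365), and voom with quality weights also called it (adjusted p = 0.0285). Its log2 fold change lay between 0.90 and 1.09 over all 12 alternatives, with adjusted p from 2.85e-07 to 0.194. Of all genes, 14.6% had a higher log2 fold change.

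MFN1 stood at 38.5 and 30.4 CPM in the OMM controls and at 87.4 and 67.8 CPM in the labelled libraries, without overlap. Its log2 fold change was 1.17 ± 0.38 (95% interval 0.29 to 2.05, adjusted p = 0.311). In the authors' deposited table it was 1.18 with p = 0.00191, and over the 12 alternatives the adjusted p ran from 0.00194 with DESeq2 to 0.763. Its partner MFN2 was at 165 and 194 CPM in the controls and 211 and 185 CPM in the labelled libraries, which overlapped, with a log2 fold change of 0.14 ± 0.23 (95% interval -0.39 to 0.68).

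SYNJ2BP and MIEF1 had both labelled libraries above both controls by smaller margins. SYNJ2BP was at 83.2 and 68.5 CPM in the controls and 113 and 98.3 CPM in the labelled libraries (log2 fold change 0.48 ± 0.30, adjusted p = 0.628). The read-through gene SYNJ2BP-COX16 had 3408 and 2292 counts in the OMM controls against 2407 and 3081 with labelling. That was 105% and 94.4% of the SYNJ2BP count in the controls against 40.3% and 86.4% with labelling. MIEF1 was at 196 and 172 CPM in the controls and 234 and 214 CPM in the labelled libraries (log2 fold change 0.28 ± 0.22, adjusted p = 0.750). A short gene on the same strand, ENSG00000285025, lies within MIEF1 over 2.82% of its exon bases, with 754 and 321 counts in the OMM controls against 1073 and 494 with labelling.

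The channels and the Miro genes were not higher at OMM. VDAC1 was at 312 and 407 CPM in the controls and 334 and 307 CPM in the labelled libraries (log2 fold change -0.17, 95% interval -0.66 to 0.33), and the groups overlapped. VDAC2 was at 147 and 178 CPM in the controls and 197 and 102 CPM in the labelled libraries (-0.12, 95% interval -0.90 to 0.66). Labelled library 2 was thus the highest of the 4 and labelled library 3 the lowest. VDAC3 was at 289 and 304 CPM in the controls and 203 and 242 CPM in the labelled libraries, both below (log2 fold change -0.41 ± 0.21, adjusted p = 0.543). RHOT1 was at 25.0 and 31.9 CPM against 27.7 and 16.6 CPM, and RHOT2 at 53.0 and 48.6 CPM against 23.7 and 42.3 CPM. Their log2 fold changes were -0.36 ± 0.54 and -0.62 ± 0.46, and labelled replicates differed by ratios of 1.67 and 1.78. The 95% intervals were -1.60 to 0.88 for RHOT1 and -1.67 to 0.43 for RHOT2, wide enough that a 2-fold fall was not detectable at this spread.

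**Figure D2:**
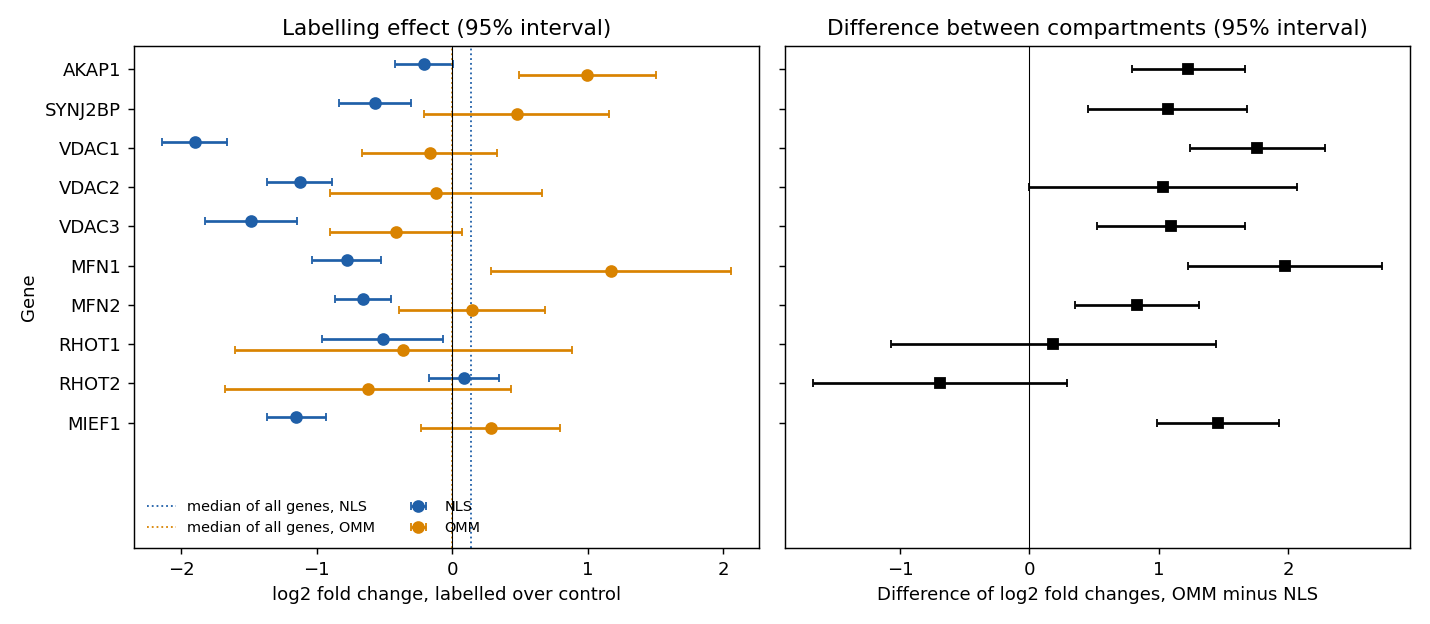
Left, log2 fold change of labelled over control for each gene at NLS (blue) and OMM (orange), with 95% intervals from edgeR's quasi-likelihood fit and dotted lines at the median of all genes; right, the difference of the 2 log2 fold changes (OMM minus NLS) with its 95% interval. The difference is above 0 for 9 genes and is -0.69 for RHOT2; intervals are not adjusted for the number of genes.

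The third comparison was the difference between the labelling effects of the compartments, an interaction term fitted over all 8 libraries. By edgeR the effect at OMM was higher than at NLS in 5 genes (adjusted p under 0.05), namely MFN1, VDAC1, MIEF1, AKAP1 and VDAC3, and in 0 it was lower. Over all 23178 genes tested 6.73% had a higher effect at OMM and 1.41% a lower one. The joint fit used the same dispersion per gene for both compartments, though replicates differed far more at OMM. The SE of the difference was below that of the OMM effect alone for AKAP1 (0.18 against 0.22), MFN1 (0.31 against 0.38) and MIEF1 (0.197 against 0.223). It was also below it for SYNJ2BP, MFN2, RHOT1 and RHOT2. For the VDAC genes it was not. The part of this pooling in the calls was not tested. MFN1 had a difference of 1.97 ± 0.31 (SE, log2 scale, adjusted p = 0.0160), with -0.78 at NLS and 1.17 at OMM. AKAP1 had a difference of 1.23 ± 0.18 (adjusted p = 0.0127), with -0.21 and 1.00. For VDAC1 (1.76 ± 0.22, adjusted p = 0.00828), MIEF1 (1.46 ± 0.20, adjusted p = 0.00990) and VDAC3 (1.09 ± 0.24, adjusted p = 0.0420) the effect at NLS was a fall and the effect at OMM did not pass. The effects of MFN1 and AKAP1 at OMM did not pass either, nor did that of AKAP1 at NLS.

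SYNJ2BP (1.07 ± 0.26, adjusted p = 0.0550), MFN2 (0.83 ± 0.20, adjusted p = 0.0541) and VDAC2 (1.03 ± 0.43, adjusted p = 0.217) had differences above 0 that did not pass. VDAC2 was at 0.44 without OMM labelled library 2 and at 1.43, and passed (adjusted p = 0.0122), without OMM labelled library 3. MFN2 passed with voom (adjusted p = 0.0445) and without OMM control 4 (adjusted p = 0.0433) or labelled library 3 (adjusted p = 0.0296). SYNJ2BP passed without OMM control 3 (adjusted p = 0.0287) or labelled library 3 (adjusted p = 0.0353). RHOT1 (0.18 ± 0.53) and RHOT2 (-0.69 ± 0.41, adjusted p = 0.391) did not pass either, though RHOT2 passed as lower at OMM without OMM labelled library 3 (-1.16, adjusted p = 0.0360). The median difference was 1.08 over the 10 genes and -0.11 over all genes, and 7 of the 10 had an unadjusted p under 0.05, as did 23.1% of all genes. With RLE factors the median of all genes moved to -0.52 and with library size alone to -0.57. AKAP1 (adjusted p = 0.0555 and 0.0588) and VDAC3 (adjusted p = 0.2 and 0.245) then no longer passed, while VDAC1, MFN1 and MIEF1 did. Relative to the median of all genes AKAP1 lay at 1.34, 1.33 and 1.34 under TMM, RLE and library size alone, as scaling shifts all genes nearly alike. Without NLS control 1 or control 3, 0 of the 10 passed, and 0 of all genes tested did. Without NLS labelled library 3, 0 of the 10 and 290 genes in all passed as higher, and without labelled library 1 only VDAC1 (adjusted p = 0.0401) and 445 genes did. The differences themselves stayed near 1.76 for VDAC1, at 1.80, 1.64, 1.64 and 1.77 without control 1, control 3, labelled library 3 and labelled library 1. For AKAP1 they were 1.24, 1.14, 1.12 and 1.22, beside 1.23 with all libraries.

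Ratios between related genes within a library do not depend on how libraries are scaled. At OMM the count of MFN1 was 0.234 and 0.157 times that of MFN2 in the controls against 0.414 and 0.366 times with labelling, a log2 difference of 1.02. At NLS the same ratio was 0.470 and 0.465 without labelling against 0.411 and 0.450 with it. AKAP1 counts were 1.71 and 2.06 times those of SYNJ2BP in the OMM controls against 2.67 and 2.69 times with labelling, and 2.00 and 1.96 against 2.74 and 2.36 at NLS, so the ratio was higher with labelling in both compartments. The VDAC1 count was 2.07 and 2.19 times that of VDAC2 in the NLS controls against 1.30 and 1.19 times with labelling. That log2 difference was -0.78, and -0.53 with pseudogene counts added. At OMM the ratio of VDAC1 to VDAC2 overlapped between groups, as did those of VDAC1 to VDAC3, VDAC2 to VDAC3 and RHOT1 to RHOT2. In an exact two-sided permutation test 2 libraries against 2 cannot go below p = 0.333, which 8 of the 12 ratios reached (adjusted p = 0.5), so none could pass.

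**Figure D3:**
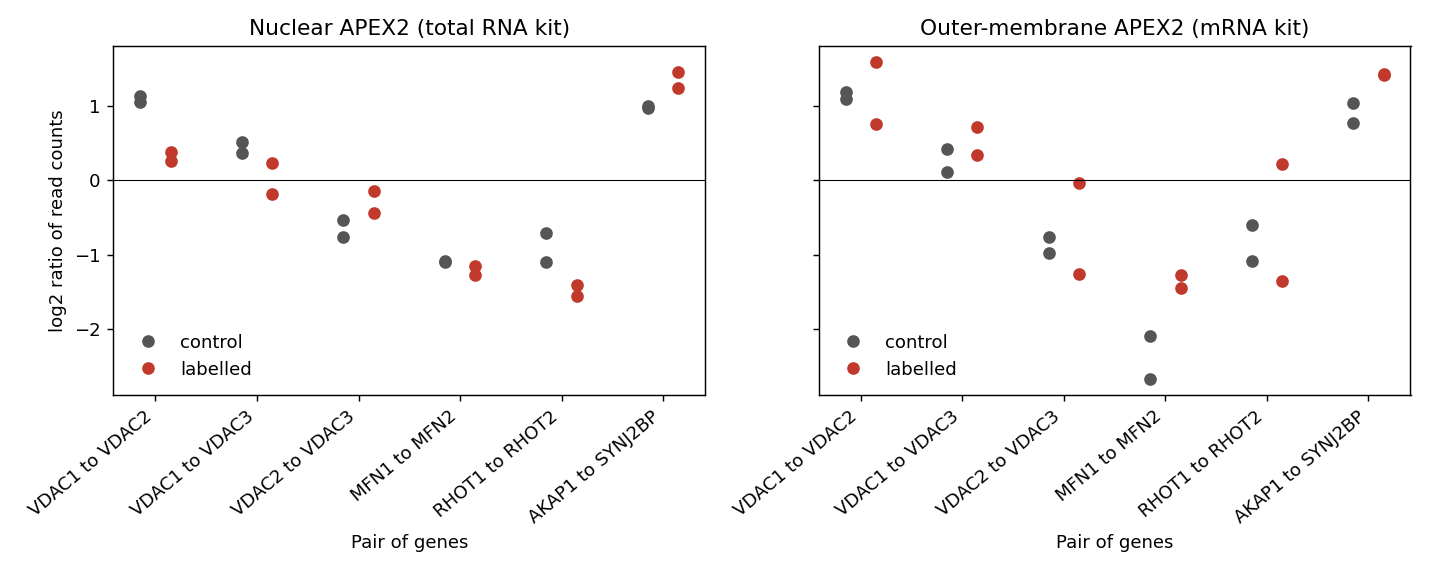
log2 ratio of read counts between 2 genes in each library, for 6 pairs, with controls in grey and labelled libraries in red; NLS is on the left and OMM on the right. The ratio of MFN1 to MFN2 is higher in both labelled OMM libraries than in both controls, and that of VDAC1 to VDAC2 is lower in both labelled NLS libraries.

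Genes that work at or with the outer membrane, some of them for cytosolic or inner-membrane proteins, were counted in 6 lists, which together had 121 genes in the tables and 117 tested in each compartment. At NLS 17 rose and 68 fell, beside 28.8% and 28.5% of all genes, or 33 and 47 with library size alone, beside 43.7% and 16.1%. RNA-binding and signalling partners of the anchors fell in 18 of 24 and rose in 0, with a median log2 fold change of -0.88 beside 0.14 over all genes; DESeq2 and voom with quality weights also gave 0 higher, and library size alone gave 5 higher and 14 lower. Among them PPP1CA, a catalytic subunit of protein phosphatase 1, fell by 1.87, STAU1, a double-stranded RNA-binding protein, by 1.65 and PPP1CB by 1.60 on the log2 scale. Apoptosis and mitophagy proteins fell in 17 of 23 and rose in 3 (median -0.97), or 11 and 4 with library size alone, with the mitophagy receptors BNIP3L at -1.75 and FUNDC1 at -1.68.

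The counts of the next 4 lists stand beside 28.5% of all genes that fell and 28.8% that rose. With library size alone those shares were 16.1% and 43.7%. Fission and dynamics genes fell in 10 of 19 and rose in 2 (median -0.52), or 5 and 4 with library size alone. STOML2, an inner-membrane scaffold, was at -1.54, FAM210B at -1.45 and MTFP1 at -1.37. Outer-membrane enzymes fell in 10 of 20 and rose in 3 (median -0.53), or 9 and 7 with library size alone. RDH14 and CYB5R3, an NADH-cytochrome b5 reductase, were at -1.30 and -1.27, and CPT1B, a carnitine palmitoyltransferase, was at 1.23. Contact-site and scaffold genes fell in 9 of 20 and rose in 6 (median -0.25), turning to 6 and 7 with library size alone, with BCAP31 at -1.66, FKBP8 at -1.48 and the mitochondrial chaperone HSPA9 at -1.41. Motors and adaptors of transport, the partners of the Miro proteins, fell in 4 of 11 and rose in 3, near the shares of all genes. Their median was 0.18, beside 0.14 over all genes, and library size alone gave 2 lower and 6 higher. MYO19, a myosin on mitochondria, rose by 1.80 and DISC1 by 1.73, whereas the kinesin heavy chain KIF5B fell by 1.22.

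At OMM 0 of the 117 rose and 0 fell by edgeR, with 19 at an unadjusted p under 0.05, beside 10.6% of all genes. DESeq2 called 14 higher and 5 lower (6.39% and 5.58% of all genes). Voom with quality weights called 6 higher and 0 lower (1.32% and 0.845%), and edgeR with library size alone 1 higher (0.332%). The list medians at OMM were 0.41 for motors and adaptors, 0.29 for partners of the anchors, 0.21 for outer-membrane enzymes, 0.15 for fission and dynamics, 0.10 for apoptosis and mitophagy and 0.06 for contact sites, beside -0.00 over all genes.

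Among the genes whose levels most followed those of AKAP1 over the 8 libraries, after centring within each compartment, were QSOX1 and LARS2, the mitochondrial leucyl-tRNA synthetase (Pearson's r 0.987 and 0.986 among 8316 genes). For SYNJ2BP they were INTS14, a subunit of the Integrator complex, HACD3 and SCRN3 (0.990, 0.983 and 0.983). The 8 points share kits, depth and labelling within each compartment, so these values only describe these libraries.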

How the data were processed

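Per the submitters' processing notes, which name Trimmomatic, STAR, HTSeq, SAMtools, bedtools and DESeq2 with the builds GRCh38.p13 and hg38, the authors deposited raw read counts per gene. Versions and strand setting were not stated in these sources, so reads of overlapping genes are uncertain. The authors deposited a log2 fold change and a p-value per gene, copied here as theirs. For the 10 genes the log2 fold changes equalled those of DESeq2 run here, and the p-values lay close to its adjusted p. They thus appear to be adjusted p-values and are not independent of that run. The tables held 4 further count columns that match no sample and were not used. Of 60664 identifiers 58396 were found in GENCODE 29, used for coordinates and exon lengths.

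The test was edgeR's, version 4.0.16 under R 4.3.3 (robust quasi-likelihood F test, TMM, filterByExpr with its minimum count of 10), two-sided, with Benjamini-Hochberg adjustment over all tested genes and a threshold of 0.05, each compartment apart. The interaction used all 8 libraries. SE comes from the log2 fold change and the root of its F value. CPM are TMM-scaled. Alternatives were RLE factors, library size alone, no filter, DESeq2 1.42.0, limma 3.58.1 (voom with quality weights), no robust moderation, at least 10 counts in every library (added after seeing the data), added pseudogene counts, 1 in place of 0.5 counts added in ratios, a replicate block and leaving out each library. The fits were run on simulated data. The spread simulated for OMM and for the interaction was below that of these libraries, so the simulation does not show how those fits perform here. Depth was 34705126 counts or more per OMM library, and lower in the labelled NLS libraries than in the NLS controls. The effect of depth on the calls was not tested in either compartment. Floors cover counting error only. Replicates differed beyond sampling noise in each group (chi-square per degree of freedom of 4.55 or more). The members and lists were chosen with earlier results of these data known. Every member is named. Of each list the 3 genes that passed with the largest changes are named, and the 3 genes most correlated with AKAP1 and with SYNJ2BP at a mean log2 CPM of at least 4. Items that this rule names but the text does not are not reported here.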

Additional observations from a re-analysis of the deposited data

Results flagged for a closer look

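By edgeR's interaction test the labelling effect was called higher at OMM than at NLS for 5 of the 10 genes, as for 6.73% of all genes. It was called lower for 0, as for 1.41%. AKAP1 and VDAC3 did not pass with RLE factors or library size alone, and the calls depended on which NLS libraries were kept. The differences, OMM minus NLS on the log2 scale, were 1.97 for MFN1, 1.76 for VDAC1, 1.46 for MIEF1, 1.23 for AKAP1 and 1.09 for VDAC3. Kit and compartment cannot be told apart in any of them, and the fit used the same dispersion per gene for both compartments.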

How the results depend on the processing

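At NLS 7 members were lower and 0 higher, beside 28.5% and 28.8% of the 20858 genes tested. With library size alone 4 were lower and 2 higher (all genes: 3351 and 9122), AKAP1 turned to 0.31 and RHOT1 to 0.0023. The other NLS alternatives gave 7 or 8 lower. Leaving out 1 library gave 7 to 8 members lower and 0 higher, and 3077 to 8425 genes higher and 4520 to 6953 lower. The replicate block by library number gave 8 members lower, RHOT1 being added (adjusted p = 0.0446), and 5075 genes higher and 5696 lower. The numbers did not pair the NLS libraries (correlation of deviations -0.03 over 2 numbers). No paired analysis was possible at OMM because the groups share fewer than 2 column numbers.

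At OMM 20 genes rose and 8 fell, or 0.139% and 0.0554% of the 14438 tested, with 0 members. Counts of genes higher and lower were 48 and 16 with library size alone, 321 and 145 with no filter, 994 and 869 with DESeq2, 1 and 0 without robust moderation, 190 and 122 with voom, and 154 and 81 with at least 10 counts in every library, an alternative chosen after seeing the data. Members higher were 1, 2, 1 and 1 with no filter, DESeq2, voom and at least 10 counts. Leaving out 1 library gave 128 to 335 genes higher, 76 to 279 lower, 0 to 1 members higher and 0 lower. VDAC1 then ran from -0.35 to 0.043 and VDAC2 from -0.67 to 0.29.

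For OMM minus NLS 1561 genes were higher and 326 lower, or 6.73% and 1.41% of the 23178 tested, with 5 members higher. RLE factors gave 626 genes and 3 members higher, and library size alone 584 and 3. Genes lower were 676 with no filter, 497 with voom and 2259 with DESeq2. RHOT1 turned to -0.24 with RLE factors, -0.29 with library size alone and -0.24 with DESeq2. Leaving out 1 library gave 0 to 2748 genes higher, 0 to 1454 lower, 0 to 7 members higher, 0 to 1 lower and -0.27 to 0.51 for RHOT1. Without OMM labelled library 3, SYNJ2BP, VDAC2 and MFN2 also passed as higher, RHOT2 passed as lower (-1.16) and VDAC3 did not pass. VDAC3 also did not pass with voom (adjusted p = 0.0655), DESeq2 (adjusted p = 0.0712) or without OMM control 3 or 4 (adjusted p = 0.0630 and 0.0650). With pseudogene counts the NLS log2 difference was -0.53 for VDAC1 to VDAC2 and -0.17 for VDAC1 to VDAC3, in place of -0.78 and -0.41. Apart from scaling and fewer libraries, the cause of these shifts was not tested.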

Other observations

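The VDAC1 pseudogenes that gave most of the added NLS counts were VDAC1P8 and VDAC1P13, chosen after their values were seen. VDAC1P8 lies on the strand of a host gene, AL031320.2, annotated as a processed transcript. It had 37 and 50 counts in the NLS controls against 109 and 60 with labelling, in libraries of smaller total. VDAC1P13, on chromosome 2 from 42463139 to 42463997 within the span and on the strand of the potassium channel gene KCNG3, had 2 and 10 counts in the controls against 51 and 45 with labelling. At OMM VDAC1P8 had no count and VDAC1P13 had 43 in labelled library 3 and none in the other libraries. VDAC2P5 had 248 counts in labelled OMM library 2 and 12 to 46 in the other OMM libraries, and VDAC2 was also highest in labelled library 2.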
